A study of Carex littledalei with 18 samples.

Results

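Genes that stood lower in sedge leaves from 12 h in the cold onward and did not come back by 48 h were sought by a fixed rule, which found 2 genes among 214531. They are TRINITY_DN203029_c3_g3 and TRINITY_DN205418_c0_g3, called below the DN203029 gene and the DN205418 gene. The members were selected on the scaled expression values of the authors' table, at all 6 times. It asked that the highest of the 9 values at 12, 24 and 48 h (the late times) lie below the lowest of the 8 values at 0, 0.5 and 4 h (the early times). It also asked for an early mean of at least 2 and for each late mean to be at most 50% of the early mean. Up to 200 genes could have been taken. Since the members were chosen by these values, their difference between late and early times is given as a description, and nothing is read from a test of it.

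The plant is Kobresia littledalei (Carex littledalei), a sedge of alpine grassland, taken from field sites in Tibet. Pots had stood in a greenhouse at 25 °C for 7 days before the move to a room at -5 °C. Leaves were taken after 0, 0.5, 4, 12, 24 and 48 h in that room, with 3 RNA libraries at each of the 6 times. The 0 h leaves are the only ones without time in the cold, and no pot was kept warm alongside. Each time was a pot of its own, so time in the cold, pot and time passed cannot be told apart. Whether replicates came from different plants is not in the labels, so p-values measure only the spread between these samples, which may be technical.

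When a plant is chilled, many transcripts move in a set order. In Arabidopsis, the CBF transcription factors are induced early and switch on protective cold-regulated genes over the following hours, while transcripts for growth and photosynthesis are commonly lowered. The level of a transcript can fall through less synthesis or faster decay, and in a whole leaf fewer cells of a type and less RNA per cell cannot be told apart. The files pair no identifier with a gene name and hold no sequence, so the products of both genes are not described here. The identifiers come from Trinity, an assembler of transcripts from reads, where a gene (g) is a group of assembled transcripts within a read cluster (c), a set of transcripts linked by shared sequence.

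Library totals ran from 18895399 to 32345479 estimated counts. Among all 153 pairs of columns, 1 pair was identical in every gene: 0 h replicate 1 and 4 h replicate 1. The rule counted that column once, and both of its labels are early times. It stands at 0 h in the levels below, and both columns were left out of the 16 libraries that were fitted. A further library, 24 h replicate 2, stood apart: 27851 genes had at least 90% of their reads in it, against at most 7033 in any other library. These genes held 6.14% of the counts. By that share 12 h replicate 1 stood apart too, with 4.11% in 3020 such genes. In every remaining library the share was at most 0.638%. The number of such genes went with the replicate number at every time. It was 71, 32, 40, 107, 153 and 71 in replicate 3 of 0, 0.5, 4, 12, 24 and 48 h. In each library of replicate 1 or 2 it was at least 672. Whether the number marks a batch was not tested. The correlations by number given below rest on 2 or 3 libraries a time, so they cannot decide it.

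The DN203029 gene was the more abundant member by scaled value. Its scaled values were 92.7, 81.9 and 51.5 at 0 h, 113, 53.4 and 84.3 at 0.5 h, and 49.2 and 44.3 at 4 h. They were 19.6, 19.9 and 17.9 at 12 h, 29.9, 22.4 and 31.5 at 24 h, and 37.9, 14.8 and 36.9 at 48 h. The highest late value was in 48 h replicate 1 and the lowest early value in 4 h replicate 3, 6.32 scaled units apart. Over the late libraries the mean was 25.6 ± 8.58 (SD, n = 9), against 71.2 ± 25.0 over the early libraries (SD, n = 8). Without the shared column the early mean was 68.2, and without 24 h replicate 2 the late mean was 26.0.

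The DN205418 gene had scaled values of 34.2, 53.7 and 40.1 at 0 h, 46.4, 67.5 and 27.0 at 0.5 h, and 34.4 and 45.4 at 4 h. Its values were 17.2, 13.8 and 23.7 at 12 h, 10.7, 15.7 and 19.7 at 24 h, and 19.9, 26.2 and 18.9 at 48 h. The separation of late from early values was narrow in this gene, with 26.2 in 48 h replicate 2 and 27.0 in 0.5 h replicate 3. Its late mean was 18.4 ± 4.76 (SD, n = 9), against an early mean of 43.6 ± 12.8 (SD, n = 8). Without the shared column the early mean was 44.9, and without 24 h replicate 2 the late mean was 18.8.

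**Figure D1:**
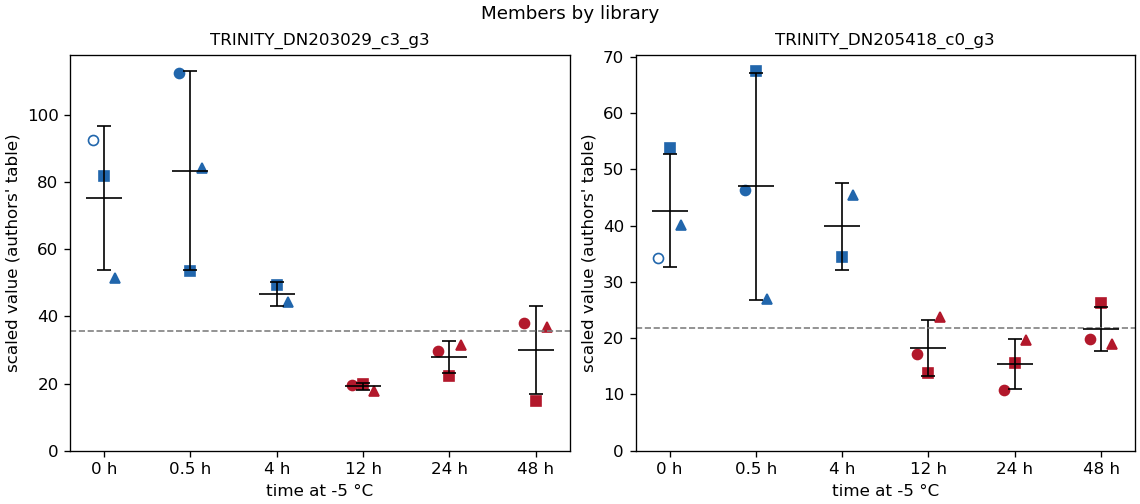
Scaled value (authors' table, linear axis from 0) of both members in each of the 17 libraries by time at -5 °C; circles, squares and triangles are replicates 1, 2 and 3, blue is early and red late, the open circle is the column shared by 0 h and 4 h, black bars are means ± SD, and the dashed line is 50% of the early mean. Late points reach 37.9 in the left panel and 26.2 in the right, below the lowest early points of 44.3 and 27.0.

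Both genes had reads in every library. The DN203029 gene had 275 to 2065 estimated counts in the 17 libraries and the DN205418 gene 652 to 6395. Counts scaled to the library total and a composition factor (CPM with TMM factors) also kept late and early values apart. Scaled to the library total alone, the values of the DN205418 gene overlapped. Its CPM was then 84.9 in 48 h replicate 2 and 75.0 in 12 h replicate 3, above 55.8 in 0.5 h replicate 3. The DN203029 gene stayed apart on that scale, with 23.2 in 24 h replicate 3 and 25.2 in 4 h replicate 3. In CPM with TMM factors, the late mean of the DN203029 gene was 15.5 ± 5.29 (n = 9), against an early mean of 43.6 ± 16.3 (SD, n = 8). That of the DN205418 gene was 47.0 ± 11.3 in CPM (n = 9), against 114 ± 32.2 at the early times (SD, n = 8). Their lengths, as inferred from counts per scaled unit, differed. Counts per scaled unit, divided by the median gene of the same library, gave the DN203029 gene 0.585 and the DN205418 gene 2.54. Of 28844 genes with an early mean of at least 2, 35.8% were shorter than the first of these and 87.0% shorter than the second by this measure. By early mean of the scaled table they took places 1567 and 2633 among all genes, and by late mean places 4645 and 6361.

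The order of the 6 times differed between the members. The means of the DN203029 gene were 75.4 ± 21.4 at 0 h, 83.4 ± 29.6 at 0.5 h and 46.8 ± 3.52 at 4 h, with n = 2 at 4 h. They were 19.1 ± 1.11 at 12 h, 27.9 ± 4.86 at 24 h and 29.9 ± 13.1 at 48 h (SD, n = 3 each). From the highest mean down the order was 0.5, 0, 4, 48, 24 and 12 h. Values of 0.5 and 0 h overlapped, as did those of 48 and 24 h, while those of 0 and 4 h, 4 and 48 h, and 24 and 12 h did not. The order of the means was the same with the shared column at 4 h, but the values of 0 and 4 h then overlapped. The 4 h mean was then 62.1 ± 26.7 (SD, n = 3), against 66.7 ± 21.5 at 0 h (SD, n = 2).

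The DN205418 gene had means of 42.7 ± 10.01 at 0 h, 47.0 ± 20.2 at 0.5 h and 39.9 ± 7.72 at 4 h, with n = 2 at 4 h. Its means were 18.2 ± 5.02 at 12 h, 15.3 ± 4.47 at 24 h and 21.7 ± 3.95 at 48 h (SD, n = 3 each). Values of neighbouring times in its order overlapped except between 4 and 48 h, which the rule had set apart. The lowest late mean was thus at 12 h in the DN203029 gene and at 24 h in the DN205418 gene.

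In percent of the early mean, the DN203029 gene stood at 26.9% at 12 h, 39.2% at 24 h and 42.0% at 48 h. The DN205418 gene stood at 41.9% at 12 h, 35.2% at 24 h and 49.7% at 48 h, so that it met the limit of 50% by a small margin. Neither gene was close to absent at any late time.

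The rule compared late with early times, so the steps within each of these blocks were tested instead. These tests are not free of the rule, which used the same values. A gene with a large step inside a block is less likely to keep all late values below all early ones. A lack of calls within a block may thus in part follow from the selection. The 16 libraries were fitted together in edgeR (quasi-likelihood test, 68030 genes, Benjamini-Hochberg adjustment over all of them). Neither member passed an adjusted p of 0.05 in any step, and neither had an unadjusted p under 0.05; DESeq2 and limma also called 0 of the 2. Between 0.5 h and 0 h, the log2 fold change was 0.21 (SE 0.47) in the DN203029 gene and -0.08 (SE 0.40) in the DN205418 gene, with 0.00588% of all genes called and 0.00294% called lower. Between 4 h and 0.5 h it was -0.88 (SE 0.48) in the DN203029 gene, with an unadjusted p of 0.084 and an edgeR adjusted p of 0.71, and -0.25 (SE 0.40) in the DN205418 gene. In that step 0% of all genes were called by edgeR, with 5248 genes at an unadjusted p under 0.05, 500 called by DESeq2 and 165 by limma.

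Among the late times neither member was called. Between 24 h and 12 h the log2 fold change was 0.58 (SE 0.42, edgeR adjusted p = 1) in the DN203029 gene, whose scaled values at these times did not overlap, and -0.26 (SE 0.36, adjusted p = 1) in the DN205418 gene. That step had 0% of all genes called by edgeR, with 2019 at an unadjusted p under 0.05, 31 called by DESeq2 and 0 by limma. Between 48 h and 24 h it was -0.01 (SE 0.41, edgeR adjusted p = 1) in the DN203029 gene and 0.51 (SE 0.36, adjusted p = 0.69) in the DN205418 gene, with 0.0955% of all genes called and 0.0691% called lower. That is 18 genes higher and 47 lower at 48 h in edgeR, against 521 higher and 149 lower in limma. Neither member was called across all times of a block. Across 12, 24 and 48 h the edgeR adjusted p was 0.89 for the DN203029 gene and 0.94 for the DN205418 gene, with 0.112% of genes called. Across 0, 0.5 and 4 h the edgeR adjusted p was 0.86 for the DN203029 gene and 1.00 for the DN205418 gene, with 0.022% called. With 2 or 3 libraries a time, a missed threshold does not show that levels within a block were equal.

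**Figure D2:**
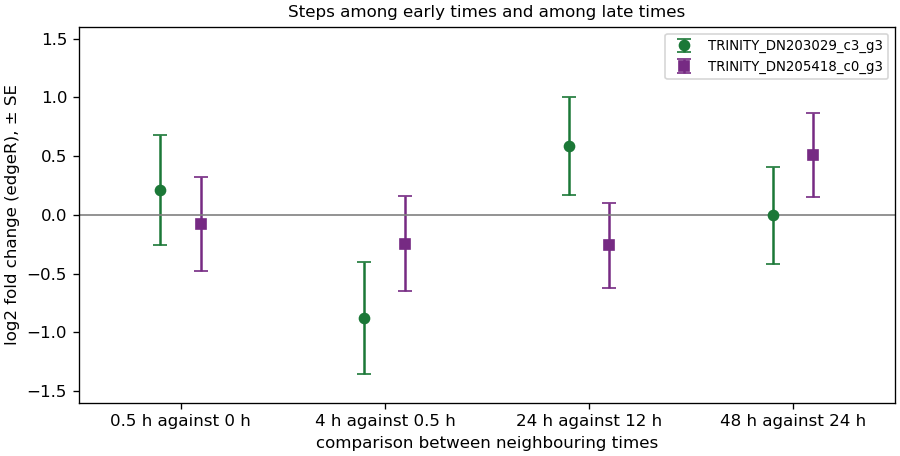
Log2 fold change ± SE (back-calculated from the edgeR F statistic) of both members for each step between neighbouring times within the early and within the late block; above 0 means higher at the later time. The largest step, -0.88 between 4 h and 0.5 h in the DN203029 gene, had an edgeR adjusted p of 0.71.

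The contrast between late and early times rests on the values that the rule had selected on, which favoured lower late levels in the members. The same fit called both members lower there, where 0.072% of the 68030 genes were called lower and 0.551% in either direction, and nothing is read from that count.

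How the members came to be so few can be followed through the rule. An early mean of at least 2 was reached by 28844 genes, and in 525 of them each late mean was at most 50% of the early mean. The separation of all late from all early values was met by 9 of the 28844, which is 0.0312%, and both conditions by the 2 members. Ratios as low as theirs were more frequent than separated values. Of the 28844 genes, 1.82% had a ratio of late to early mean as low as the DN203029 gene or lower, and 2.74% as low as the DN205418 gene or lower. The median log2 ratio of these genes was -0.05, against -1.47 and -1.24 in the members. With the direction turned round, 127 of 29189 genes (0.435%) had all late values above all early values, and 120 met the mirrored rule; the difference between the directions was not tested.

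Genes just outside the limits differed from the members by little. Among the 9 separated genes, the largest late mean was 42.0% and 49.7% of the early mean in the members, and 51.3%, 54.6% and 59.9% in the nearest others. Among the 525 genes, the highest late value was 0.857 and 0.968 of the lowest early value in the members, and 1.01, 1.02 and 1.04 of it in the nearest others. A further 3 separated genes were halved at every late time but had early means of 1.39, 0.926 and 0.375. There were 32 genes that a single library kept from separation while their late means were low enough. In 9 of these 0.5 h replicate 3 stood with the late values, and in 6 it was 0.5 h replicate 1. A single early library did so in 28 genes, and a single late library stood with the early values in 13. Some genes thus count under both, where 1 early and 1 late library crossed. The most frequent late library was 24 h replicate 3, in 4 genes.

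**Figure D3:**
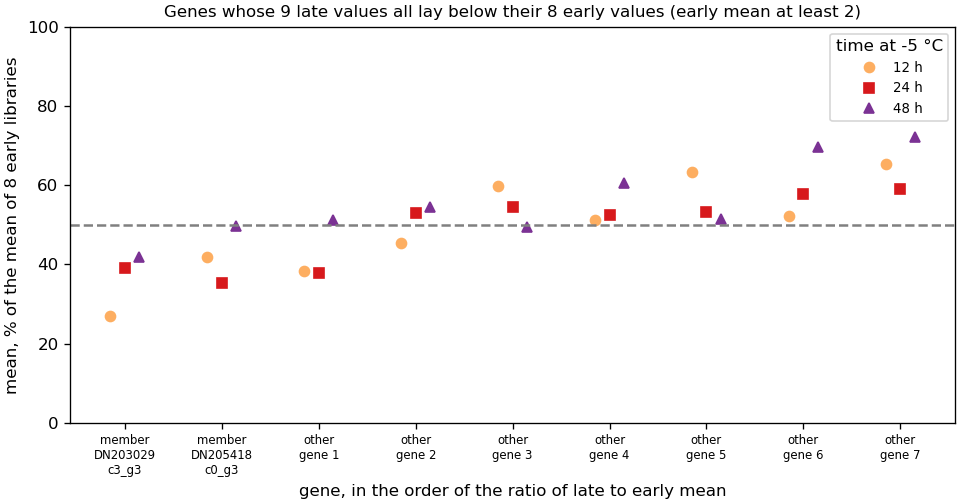
Mean at 12, 24 and 48 h in percent of the mean of the 8 early libraries, for the 9 genes of early mean at least 2 whose late values all lay below their early values; the dashed line is the 50% limit of the rule. The members are the 2 genes with all 3 points under the line, at 26.9% to 42.0% and 35.2% to 49.7%.

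Membership rested on single libraries. Leaving out 0.5 h replicate 3 gave 12 genes. Replicate 1 of 0.5 h and replicate 2 of 4 h gave 7 each when left out. Replicates 1 and 2 of 0 h, replicate 3 of 12 h and replicate 3 of 24 h gave 6 each. Replicate 3 of 0 h gave 5, replicate 1 of 12 h and replicate 2 of 24 h gave 4 each, and any other library 2 or 3. The DN203029 gene met the rule in all of these but 1, without 48 h replicate 2. The DN205418 gene dropped out without 0 h replicate 2, 0.5 h replicate 1 or 2, or 48 h replicate 1 or 3. With the shared column counted at both 0 h and 4 h, only the DN203029 gene remained, and with it left out altogether 6 genes met the rule, both members among them.

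The read clusters of the members held 10 other genes, 2 beside the DN203029 gene and 8 beside the DN205418 gene. These partners were looked up after the members' values were known, and reads may be divided among genes of a cluster, so they are not independent of the members. Of the 10, 7 entered the edgeR fit. At late against early times 1 was called lower and 0 higher, where 0.072% of all genes were called lower, and 0 of the 7 were called in any step within a block (0 at an unadjusted p under 0.05).

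The called partner was the most abundant one beside the DN205418 gene. Its scaled values ran from 2.72 to 7.998 over the late libraries, with a median of 6.54, and from 10.2 to 17.9 over the early libraries, with a median of 13.6. The late and early values did not overlap, and the log2 fold change was -1.29 (SE 0.23, edgeR adjusted p = 0.015). It failed the members' rule because its 48 h mean was 51.3% of its early mean. Leaving out a library of 0 h or 4 h left 1 library at that time and let more genes into the test. The call was lost in some of these fits but not in all of them. The log2 fold change was then -1.12 without replicate 2 and -1.42 without replicate 3 of 0 h. It was -1.34 without replicate 2 and -1.25 without replicate 3 of 4 h. The call was also lost with the replicate number as a block (-1.26, edgeR adjusted p = 0.069) or with library size alone (-1.26, adjusted p = 0.12).

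Other partners of the DN205418 gene did not all follow it. The partner second in abundance had a late mean of 9.11 ± 3.37 (n = 9), against an early mean of 9.02 ± 2.95 (SD, n = 8), with a log2 fold change of 0.02 (SE 0.27). The third stood at 4.53 ± 1.52 at late times (n = 9), against 5.63 ± 2.77 at early times (SD, n = 8), and was not called either (edgeR adjusted p = 0.74). Partners 4 and 5 by abundance, at 2.06 and 1.52 late against 3.75 and 2.84 early, had log2 fold changes of -0.93 and -0.84 and edgeR adjusted p-values of 0.25 and 0.31. The DN205418 gene held 70.4% ± 5.15 of its cluster's counts at late times (n = 9), against 78.4% ± 3.42 at early times (SD, n = 8), and these ranges overlapped.

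Beside the DN203029 gene, the more abundant partner had a late mean of 4.196 ± 1.91 (n = 9), against an early mean of 11.9 ± 4.55 (SD, n = 8). Its highest late value, 8.35, was above its lowest early value, 7.55. Its log2 fold change was -1.17 (SE 0.31, edgeR adjusted p = 0.12), and it was called by DESeq2 (adjusted p = 0.011), by limma (0.018) and by edgeR with all 18 columns (0.027). It rested on few reads, 19 to 47 in the late libraries and 33 to 206 in the early ones. The other partner had a late mean of 1.21 ± 0.762 (n = 9), against an early mean of 1.99 ± 2.20 (SD, n = 8), and was not called. The DN203029 gene held 90.5% ± 3.71 of its cluster's counts at late times (n = 9), against 92.4% ± 2.09 at early times (SD, n = 8).

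**Figure D4:**
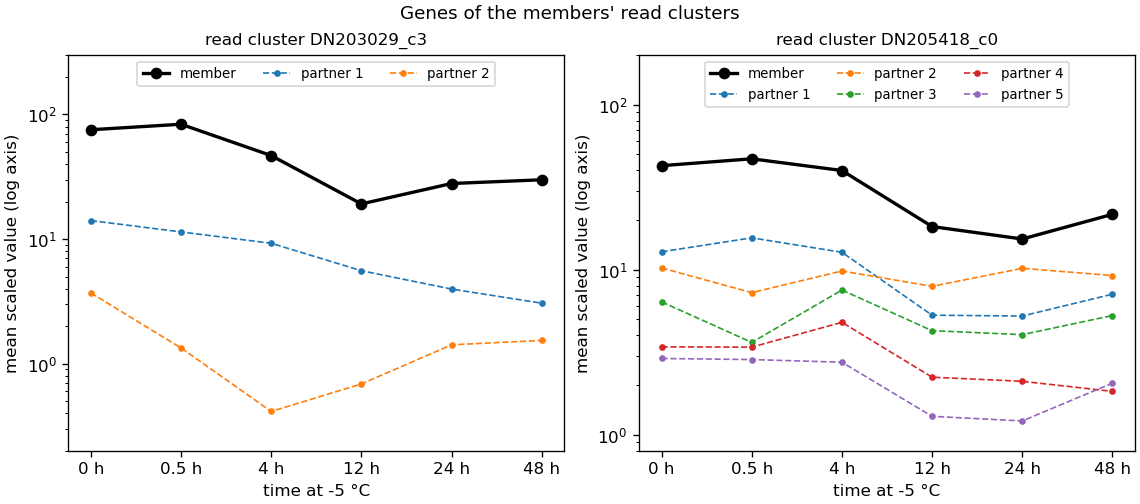
Mean scaled value (log axis) by time at -5 °C of each member, in black, and of the partners in its read cluster with an early mean of at least 1, numbered by early mean. In the right panel partner 1 runs along with the member, with late values up to 7.998 and early values from 10.2, while partner 2 averages 9.11 at late and 9.02 at early times.

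Likeness of profiles was measured by the root mean square distance between log2(scaled value + 1) profiles over the 17 libraries, each centred on its own mean. This measure was chosen after the values were seen. For the DN205418 gene, the nearest of 29177 genes was its most abundant partner, at a distance of 0.23, followed by a gene of another cluster at 0.34; the median over all genes was 0.88. For the DN203029 gene the nearest gene was at 0.52 and belonged to another cluster, and the more abundant partner came in place 3 at 0.55, with a median of 1.01. The members lay 0.66 apart. The DN205418 gene was in place 82 by likeness to the DN203029 gene, and the DN203029 gene in place 3265 by likeness to the DN205418 gene. All these profiles share the same libraries.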

How the data were processed

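Leaf polyadenylated RNA of 18 samples was sequenced by BGI-seq from MGIEasy libraries made with 2 µg of total RNA, per the labels' protocols. Trimmomatic 0.36 and FastQC were used, per the submitters' processing notes. Of the aligner, counting tool and assembly build nothing is stated in the sources used. Per assembled gene, the authors deposited estimated counts (expected counts) without scaling. Their second deposited table is a signal, scaled by TMM per its name. Its name does not give scaling for gene length, which is inferred here from counts per scaled unit that differ between genes. Whether it began as TPM or FPKM is not stated. Titles matched every column to a sample, with 0 left over.

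The members, the rule and the gene groups were chosen with earlier results of these data known. The rule was applied to the scaled table without 4 h replicate 1, with a pseudocount of 0.1 for ranking. Rounded counts were tested with edgeR 4.0.16 in R 4.3.3, after filterByExpr by time and with TMM factors, on a mean for each of the 6 times with 10 residual degrees of freedom. The common biological coefficient of variation was 69.3%. The design left out 0 h replicate 1 and 4 h replicate 1. Genes with an adjusted p under 0.05 count as called. The SE is the log2 fold change divided by the square root of the F statistic, and is not a fitted standard error. The procedure was tested on simulated counts. Alternatives were RLE size factors, library size alone, no filter, 1 CPM in 3 libraries, the identical column kept, each library left out in turn, the replicate number as a block, DESeq2 1.42.0, and limma 3.58.1 run on the scaled table as log2(value + 1). Leaving out a library of 0 h or 4 h left that time with 1, assumed to vary like the others. Printed identifiers follow a rule for at most 2 members of highest early mean; other genes are described by their place in an order. No gene lists or cell type markers could be used, since no annotation was at hand.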

Additional observations from a re-analysis of the deposited data

How the results depend on the processing

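In place of the 2 genes found, 5 genes met the rule in CPM with TMM factors, 6 with both identical columns left out and 1 with both kept. A least early mean of 1 gave 3, and a mean of 5 or a pseudocount of 1 gave 2. Settings added after the data were seen gave 0 genes with late means of at most 0.4 of the early mean, 5 with 0.6 and 9 with no ratio condition. Leaving out each library gave 2 to 12. The count of members called at late against early times, 2, rests on values the rule had used and was 1 with library size alone, 1 with the replicate block and 0 to 2 leaving out each library, with 0 when replicate 2 of 0 h or either 4 h library was left out. The count of called partners, 1, was 0 with library size alone, 0 with the replicate block, 2 with all 18 columns, 2 in limma, 2 in DESeq2 and 0 to 1 leaving out each library. The cause of these shifts was not tested. Leaving out a library of 0 h or 4 h also raised the number of genes tested, to between 95186 and 97017 from 68030. Counts of calls from those fits are therefore not like for like with the main fit. In the steps and tests within a block, 0 members were called under each of the 26 alternatives, which the selection may in part have set. The log2 fold change of the DN203029 gene at 48 h against 24 h was 0.0061 with all 18 columns, and -0.21 to 0.33 leaving out each library. Across times, deviations of same-numbered libraries correlated at a median of -0.049 (36 pairs, -0.33 to 0.37). Libraries of different number correlated at a median of 0.025 (70 pairs, -0.44 to 0.32). Of 16 libraries, 3 were nearest to their own number, which was not taken as a pairing. This does not decide whether it marks a batch. Under the block, edgeR called 234 genes at late against early times, against 375 without it. That count was 1984 in DESeq2, 470 in limma, 2124 without a filter, 581 with all 18 columns and 76 to 779 leaving out each library. Calls over all genes within the blocks moved too: at 48 h against 24 h edgeR called 65, against 7007 without a filter, 1666 in DESeq2, 670 in limma, 118 with 1 CPM in 3 libraries and 31 under the block. Leaving out each library gave 10 (replicate 1 of 48 h) to 164 (replicate 1 of 12 h). Across 12, 24 and 48 h it called 76, against 3 to 136 leaving out each library, with 3 for replicate 1 or 2 of 48 h. At 0.5 h against 0 h it called 4, against 795 without a filter, 249 in DESeq2, 167 in limma and 30 with the identical column at 0 h. For 24 h against 12 h, edgeR called 4953 without a filter and 0 with it. For 4 h against 0.5 h, these counts were 1274 without it and 0 with it.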
